A study of Mus musculus with 2 samples.

Results

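Genes of the Wnt pathway were followed through the mesenchymal cells of the mouse metaphysis, the bone region beneath the growth plate. They were chosen by symbol, and all 10 members (Lrp5, Lrp6, Lrp4, Lgr4, Wnt5a, Ctnnb1, Lef1, Tcf7, Tcf7l2 and Axin2) were found once each among the 27998 genes of the count tables. Cells came from 1-month-old Gli1-CreERT2; Ai9 mice on a mixed background, in which tamoxifen turns on the red protein tdTomato in cells that use the Gli1 promoter, and in their descendants. All mice received tamoxifen on 3 days and then either vehicle or teriparatide, the active fragment of parathyroid hormone, at 400 ng per g of body weight by daily injection for 3 days. Cells that were tdTomato+ and lacked CD31, CD45 and Ter119 were sorted from mice of both sexes, and each treatment gave 1 library of 3' single-cell RNA sequencing, taken here as a pool of its mice although the methods do not state it. Both groups carry the same Cre and reporter, and the Gli1 promoter that drives the Cre limits them to that lineage and to whatever else passed the sort.

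A Wnt ligand binds a Frizzled receptor together with the co-receptor Lrp5 or Lrp6, and the signal keeps beta-catenin, the product of Ctnnb1, from being broken down. Beta-catenin then joins a DNA-binding protein of the TCF/LEF family and turns on target genes, among them Axin2, whose product slows the pathway down again. In bone this pathway is known as a main driver of osteoblast formation, and sclerostin from osteocytes holds it back.

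The vehicle library held 1286 barcodes with 10567335 unique molecular identifiers (UMIs, each standing for 1 captured mRNA molecule), and the teriparatide library held 2142 barcodes with 26270041 UMIs. More than 10% mitochondrial UMIs set aside 55.8% and 40.2% of the barcodes, and 549 and 1217 cells passed all limits. Despite the sort, 516 of these 1766 cells were hematopoietic-like and 219 erythroid-like by their markers. The 1027 mesenchymal cells that remained were clustered without the Wnt genes, and 918 of them fell into 6 classes named from markers. COP-like cells, the chondro-osteoprogenitors with Sox9, Col2a1 and Acan, numbered 66 after vehicle and 265 after teriparatide. The preOB-like cells (preosteoblasts, with Postn, Aspn and Tnn) numbered 57 and 53, and their cluster was also led by Rgs5 and Acta2, genes of mural cells. The OB-like cells (osteoblasts, with Col1a1 and Bglap2) numbered 96 and 94, and the MALP-like cells (marrow adipogenic lineage precursors, with Lepr, Cxcl12 and Adipoq) numbered 125 and 80. The 17 and 37 osteocyte-like cells (with Mepe and Dmp1) and the 8 and 20 hypertrophic-like cells (with Col10a1 and Ihh) were few. Of the mesenchymal cells whose sex could be called from Xist and Y-linked genes, 52.6% (exact 95% interval 47.2 to 58.0) were male after vehicle and 90.0% (87.0 to 92.5) after teriparatide. The methods give both groups the same make-up of mice by sex, with more males than females. The cells of the libraries nevertheless differ in sex as well as in treatment, and the main differences are also given for male cells.

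A level is the number of UMIs of a gene among 1000000 UMIs (CPM), for which all cells from 1 class and library were added up, and the interval after it is an exact 95% Poisson interval. With 1 library per treatment no test between treatments was possible. The intervals cover counting error only, and neither the spread between mice nor that between cells.

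The starts of Lef1 and Tcf7l2 are shown first, because these genes of the TCF/LEF family had the clearest differences between classes and libraries, a choice made after their values were seen. RefSeq (GRCm38.p6) lists 4 starts of Lef1 and 2 of Tcf7l2, of which the outermost and innermost are printed, and a 3' library cannot say which of them a molecule came from. The 250 bases before a start are printed 5' to 3' on the plus strand, on which both genes lie, and capitals mark the letters CTTTGA or CTTTGT, the core that TCF/LEF proteins bind, on either strand. The marked matches do not overlap each other.
Lef1 outer start, chr3:131110047-131110296: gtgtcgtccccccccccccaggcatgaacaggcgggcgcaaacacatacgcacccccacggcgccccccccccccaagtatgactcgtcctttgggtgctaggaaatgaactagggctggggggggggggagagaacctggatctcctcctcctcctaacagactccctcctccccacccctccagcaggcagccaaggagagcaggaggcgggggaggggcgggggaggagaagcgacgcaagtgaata
Lef1 inner start, chr3:131156044-131156293: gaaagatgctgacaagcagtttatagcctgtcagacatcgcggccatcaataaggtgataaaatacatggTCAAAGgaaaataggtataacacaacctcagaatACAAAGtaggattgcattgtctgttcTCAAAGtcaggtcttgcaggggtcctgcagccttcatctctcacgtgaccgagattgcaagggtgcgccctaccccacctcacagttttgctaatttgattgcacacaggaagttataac
Tcf7l2 outer start, chr19:55741560-55741809: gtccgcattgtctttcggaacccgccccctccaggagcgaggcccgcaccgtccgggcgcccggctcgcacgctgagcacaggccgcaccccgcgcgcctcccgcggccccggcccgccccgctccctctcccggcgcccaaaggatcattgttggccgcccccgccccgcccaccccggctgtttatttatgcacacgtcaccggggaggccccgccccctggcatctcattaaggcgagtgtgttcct
Tcf7l2 inner start, chr19:55895071-55895320: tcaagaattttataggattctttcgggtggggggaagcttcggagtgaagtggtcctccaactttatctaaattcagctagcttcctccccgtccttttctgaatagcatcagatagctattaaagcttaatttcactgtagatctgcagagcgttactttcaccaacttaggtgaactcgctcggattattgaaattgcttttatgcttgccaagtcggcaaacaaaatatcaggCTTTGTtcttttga

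The outer windows held no match. The inner window of Lef1, in an intron of the gene, held 3 matches, all on the minus strand, and that of Tcf7l2, also in an intron, held 1 on the plus strand. RefSeq starts were listed for 6 of the 10 members (Lgr4, Ctnnb1, Lef1, Tcf7, Tcf7l2 and Axin2) with 12 windows, and these 2 inner windows were the only ones with a match. Lrp4, Lrp5, Lrp6 and Wnt5a had no entry. Among all 32851 windows of the same length, 27.6% held at least 1 match and 0.78% held 3 or more, so a single match is common. The 2 inner windows with a match had the lowest share of G and C bases of the 12, at 44.8% (Lef1) and 40.8% (Tcf7l2). The others had 50.8% to 76.0%. The shares over all windows were not split by base content, and its part in the matches was not tested. A match describes the letters and does not show that a factor binds there.

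Each member had its own distribution over the classes, and no class held the highest level of every member. Lef1 was highest in COP-like cells, Tcf7 and Lrp5 in OB-like cells, Lrp6 and, outside the osteocyte-like and hypertrophic-like cells, Tcf7l2 in MALP-like cells, and Lrp4 and Wnt5a in preOB-like cells. For each of these genes the leading class was the same in both libraries, though preOB-like and osteocyte-like cells could not be told apart for Lrp4, nor, after teriparatide, OB-like and osteocyte-like cells for Tcf7 or MALP-like and osteocyte-like cells for Lrp6. Ctnnb1 was spread more evenly. Lgr4 had no class that stood out at the top, and among the larger classes it was lowest in preOB-like cells.

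**Figure D1:**
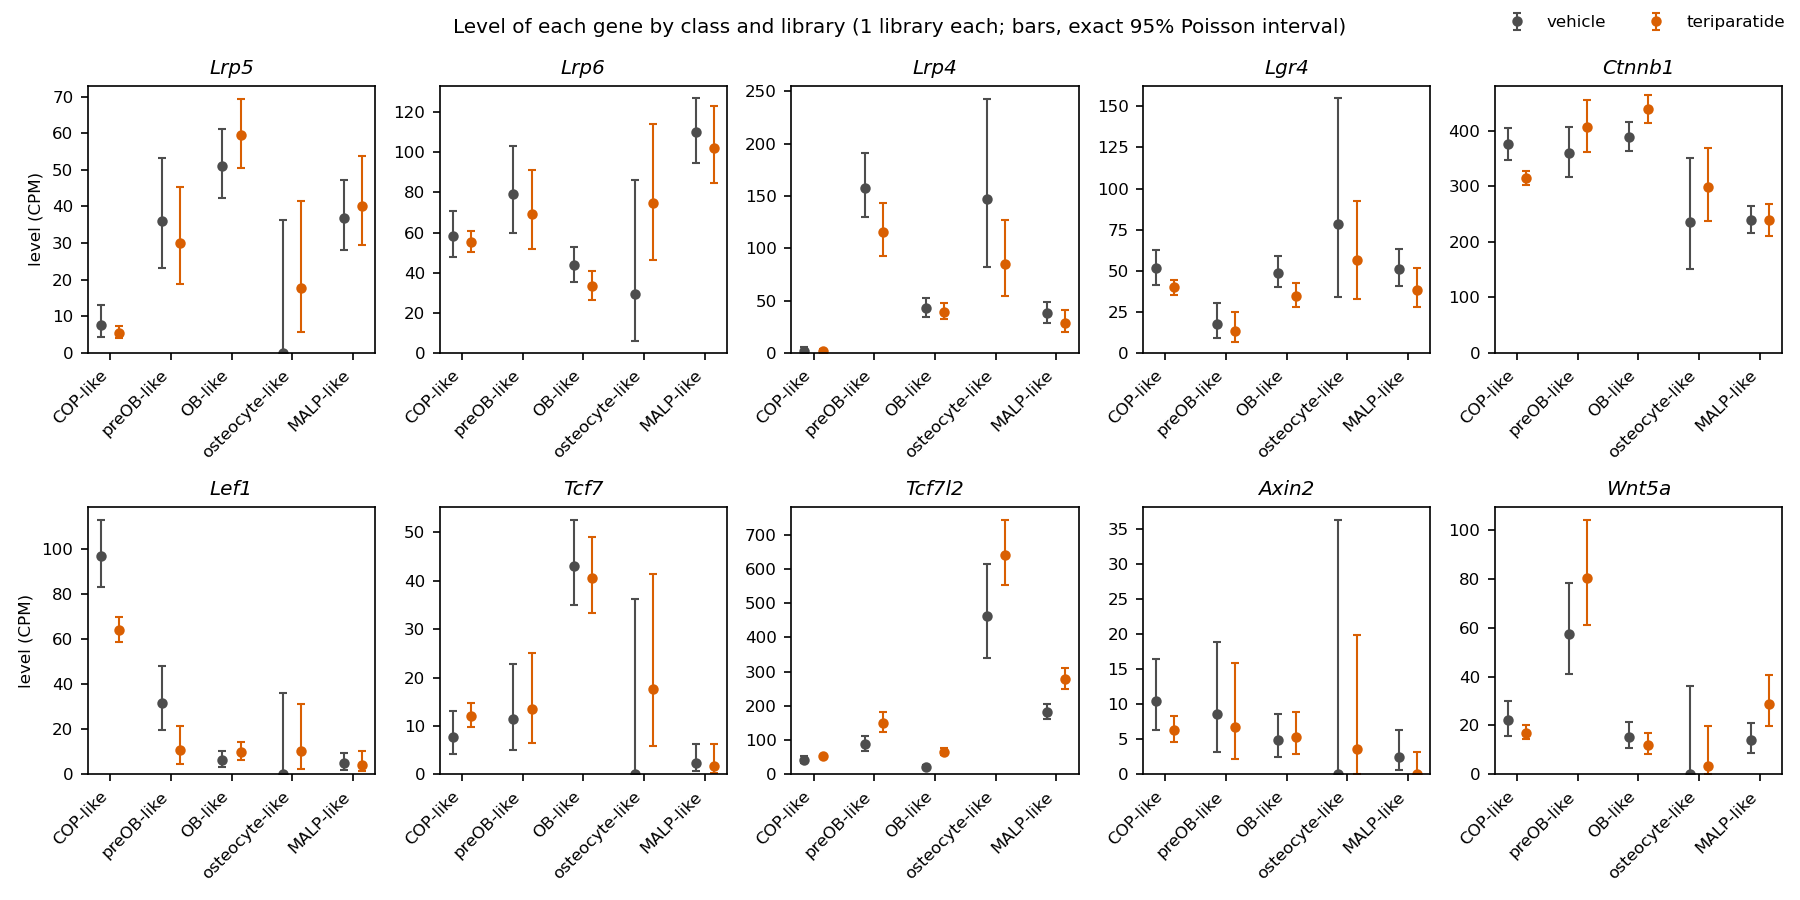
Level (CPM, linear axis from 0) of each of the 10 genes in 5 classes, in the vehicle and the teriparatide library, with points for the summed cells of a class and bars for the exact 95% Poisson interval. Lef1 peaks in COP-like cells (97.2 and 64.3 CPM), Tcf7 in OB-like cells (43.1 and 40.6 CPM) and Tcf7l2 in osteocyte-like cells (462 and 642 CPM).

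Among the receptors, Lrp5 (ENSMUSG00000024913, chr19:3584828-3686564, minus strand) is the co-receptor whose inherited gain or loss of function raises or lowers bone mass. Its level in OB-like cells was 51.0 CPM (42.2 to 61.2) after vehicle and 59.4 CPM (50.5 to 69.4) after teriparatide. MALP-like cells had 36.7 and 40.2 CPM and preOB-like cells 36.0 and 29.9 CPM, which did not differ from each other beyond counting error in either library. The COP-like level was 7.73 CPM (4.23 to 13.0) and 5.50 CPM (4.0 to 7.39), the lowest of the 4 larger classes in both libraries. The highest class, OB-like, stood above the other 3 of these classes combined by 2.14-fold after vehicle and 5.24-fold after teriparatide, where COP-like cells made up more of the other 3.

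Lrp6 (ENSMUSG00000030201, chr6:134446476-134566965, minus strand) encodes the sister co-receptor, and its order over the classes was different. MALP-like cells had 110.0 CPM (94.5 to 127) after vehicle and 102 CPM (84.6 to 123) after teriparatide, and preOB-like cells had 79.2 and 69.4 CPM. COP-like cells had 58.5 and 55.4 CPM, and OB-like cells had the lowest level of the 4 classes in both libraries, at 43.6 CPM (35.4 to 53.0) and 33.1 CPM (26.5 to 40.8). The osteocyte-like level was 29.5 CPM (6.08 to 86.1) from 3 UMIs after vehicle and 74.5 CPM (46.1 to 114) from 21 after teriparatide. Of the UMIs of the co-receptor pair, Lrp5 held 11.7% (exact binomial interval 6.53 to 18.8) in vehicle COP-like cells, 25% (19.7 to 31) in MALP-like, 31.2% (21.3 to 42.6) in preOB-like and 54.0% (47.0 to 60.8) in OB-like cells. In the teriparatide library these shares were 9.03%, 28.2%, 30.1% and 64.2%, so the order of the classes was the same in both libraries, with intervals of preOB-like and MALP-like cells that overlapped. Each molecule is counted once at its 3' end, so these shares were not corrected for length.

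Lrp4 (ENSMUSG00000027253, chr2:91457511-91513779, plus strand) encodes a related receptor that binds sclerostin and aids its action on bone. It was nearly absent from COP-like cells, with 4 UMIs after vehicle and 16 after teriparatide (2.21 and 2.0 CPM). In preOB-like cells it reached 158 CPM (130.2 to 191) after vehicle and 116 CPM (92.4 to 143) after teriparatide. This was 5.56-fold and 8.92-fold the level of the other 3 larger classes together. COP-like cells held 27.4% of the UMIs of the 6 classes after vehicle and 59.7% after teriparatide. They thus weighed more in the other 3 after teriparatide, and the 2 folds do not compare the libraries. Levels were 42.7 and 39.1 CPM in OB-like cells, 37.9 and 28.9 CPM in the MALP-like class. In osteocyte-like cells the level was 147 CPM (82.5 to 243) and then 85.2 CPM (54.6 to 127), above OB-like cells and not distinguishable from preOB-like cells in either library. A UMI of Lrp4 was seen in 68.4% of vehicle and 60.4% of teriparatide preOB-like cells and in 4.55% and 4.53% of COP-like cells, though the median COP-like cell held 28718 and 30922 UMIs against 9319 and 11799 in preOB-like cells. With every cell thinned to 3400 UMIs the shares were 47.3% and 33.3% against 1.54% and 1.53%. None of the erythroid-like cells, which stand for the background of free RNA, held a UMI of it. Hematopoietic-like cells had 3.00 CPM after vehicle and 2.37 CPM after teriparatide, close to the COP-like level.

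Lgr4 (ENSMUSG00000050199, chr2:109917647-110014257, plus strand) encodes a receptor for R-spondins, secreted proteins that raise the amount of Frizzled on the cell surface. COP-like, MALP-like and OB-like cells did not differ beyond counting error, at 51.4, 51.3 and 48.8 CPM after vehicle and 39.8, 38.5 and 34.6 CPM after teriparatide. Osteocyte-like cells had 78.6 and 56.8 CPM from 8 and 16 UMIs, not beyond the counting error of these. The preOB-like cells were lowest, at 17.3 CPM (8.93 to 30.2) and 13.6 CPM (6.53 to 25). Within the COP-like cells the gene was uneven. The cluster led by Cpm, Meg3 and Sfrp5 had 98.8 CPM (75.2 to 128) after vehicle and 59.4 CPM (50.5 to 69.3) after teriparatide, against 27.6 and 32.2 CPM in the cluster led by Chad and 28.4 and 26.9 CPM in the cluster led by Ppa1, Ndufa4l2 and the cell division gene Top2a.

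Wnt5a (ENSMUSG00000021994, chr14:28504750-28527448, plus strand), the ligand of the set, mostly signals without beta-catenin. It was highest in preOB-like cells, at 57.6 CPM (41.1 to 78.4) after vehicle and 80.3 CPM (61.1 to 104) after teriparatide. The 5 preOB-like cells with the most UMIs held 55.0% and 61.0% of these, and a UMI was seen in 33.3% and 37.7% of the cells, so the level rested on part of the class. COP-like cells had 22.1 and 17.1 CPM, OB-like cells 15.4 and 12 CPM, and those of the MALP-like class 14.1 and 28.9 CPM. Within the COP-like cells the pattern was the reverse of that of Lgr4, with 1.68 and 4.45 CPM in the Cpm-led cluster, 34.1 and 24.9 CPM in the Chad-led cluster and 30.1 and 22.0 CPM in the Ppa1-led cluster.

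Ctnnb1 (ENSMUSG00000006932, chr9:120929216-120960507, plus strand), which encodes beta-catenin, was found in most cells of the named classes. A UMI was seen in 89.6% to 100% of the cells of the 4 larger classes. In osteocyte-like cells the share was 82.4% after vehicle and 70.3% after teriparatide. OB-like cells had 389 CPM (364 to 416) after vehicle and 439 CPM (414 to 465) after teriparatide. COP-like cells had 376 and 315 CPM, preOB-like cells 359.9 and 407 CPM, and MALP-like cells 239 CPM in both libraries. The span between the highest and lowest of these classes was thus below 2-fold. Hematopoietic-like cells had 126 and 77.2 CPM and erythroid-like cells 44.0 and 48.2 CPM. Ulk4, taken over its whole span with introns, lies over exons of Ctnnb1 on the opposite strand. The sources used here do not say whether counting used strand. RNA level says nothing of the stability of the protein, by which the pathway acts.

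The TCF/LEF genes divided the mesenchyme among them. Lef1 (ENSMUSG00000027985, chr3:131110471-131224356, plus strand), a factor with roles in many developing tissues, had 97.2 CPM (83.4 to 113) in vehicle and 64.3 CPM (58.8 to 70.1) in teriparatide COP-like cells. This was 10.2-fold and 7.48-fold the level of the other 3 larger classes together. The preOB-like cells had 31.7 CPM from 22 UMIs and 10.9 CPM from 8 UMIs, with 77.3% and 100% of the UMIs in 5 cells. The MALP-like class had 4.89 and 4.37 CPM, near the 6.01 and 3.80 CPM of hematopoietic-like cells. In OB-like cells Lef1 stood at 6.16 CPM (3.37 to 10.3) after vehicle and 9.78 CPM (6.39 to 14.3) after teriparatide. The latter lay above the 3.80 CPM (2.43 to 5.65) of teriparatide hematopoietic-like cells. In that library a UMI was seen in 24.5% against 2.48% of these cells, which held a median of 25480 and 11128 UMIs. After thinning the shares were 3.26% and 1.88% there, and 0% and 3.51% in the vehicle library.

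Tcf7 (ENSMUSG00000000782, chr11:52252371-52283014, minus strand), which encodes TCF1, had its highest level in OB-like cells. It stood at 43.1 CPM (35.0 to 52.5) after vehicle and 40.6 CPM (33.3 to 49.0) after teriparatide. These levels were 6.87-fold and 3.68-fold the other 3 larger classes together, in which COP-like cells weighed more after teriparatide. COP-like cells had 7.73 and 12.1 CPM and the MALP-like class 2.44 and 1.75 CPM, the latter from 4 and 2 UMIs. GENCODE places a long noncoding gene, Gm26551, over its exons on the same strand, so that counts of Tcf7 are uncertain where reads could belong to either.

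Tcf7l2 (ENSMUSG00000024985, chr19:55741820-55933654, plus strand), which encodes TCF4, was distributed differently again. MALP-like cells had 183 CPM (163 to 205) after vehicle and 279 CPM (249 to 311) after teriparatide. These levels were 4.73-fold and 4.53-fold the other 3 larger classes together, in which COP-like cells weighed more after teriparatide. Osteocyte-like cells were higher still, at 462 CPM (339 to 614) and 642 CPM (552 to 743), and a UMI was seen in 70.6% and 86.5% of them. The preOB-like cells had 87.8 and 151 CPM and COP-like cells 42 and 52.3 CPM. OB-like cells, the neighbours of osteocytes in the lineage, had 21.1 CPM (15.6 to 28.0) and 65.1 CPM (55.7 to 75.5). Every step in the order of the 5 classes was beyond counting error in both libraries, and the last places of COP-like and OB-like cells were exchanged between them.

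The make-up of the family was compared as the share each gene held of the UMIs of Lef1, Tcf7, Tcf7l2 and Tcf7l1, the remaining family gene. In vehicle COP-like cells Lef1 held 61.5% (55.6 to 67.2) of 286 UMIs, in vehicle OB-like cells Tcf7 held 54.1% (46.6 to 61.6) of 181, and in vehicle MALP-like cells Tcf7l2 held 76.1% (71.6 to 80.3) of 394. Osteocyte-like cells were almost wholly of the Tcf7l2 type, at 95.9% (86.0 to 99.5) of 49 UMIs and 95.3% (91.2 to 97.8) of 190. In the teriparatide library the leading gene of COP-like and MALP-like cells was the same, with Lef1 at 45.4% (42.5 to 48.4) and Tcf7l2 at 82.0% (77.8 to 85.7). In the OB-like cells it changed, as Tcf7 held 31.4% (26.5 to 36.6) and Tcf7l2 50.3% (44.9 to 55.7), up from 26.5% (20.2 to 33.6).

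**Figure D2:**
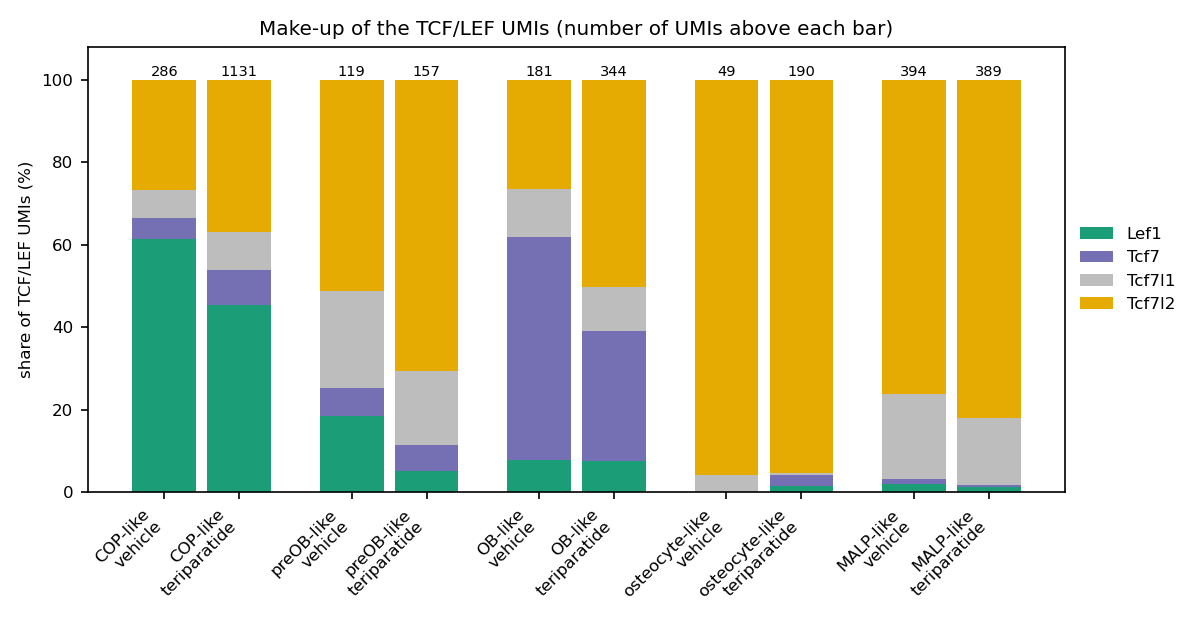
Share (%) of the TCF/LEF UMIs held by each of the 4 genes, as stacked bars for 5 classes in each library, with the number of UMIs above each bar. Lef1 leads in COP-like cells, Tcf7 in vehicle OB-like cells only, and Tcf7l2 in the other bars, teriparatide OB-like cells included.

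Axin2 (ENSMUSG00000000142, chr11:108920349-108950783, plus strand), the feedback target most often used to read beta-catenin activity, was sparse. COP-like cells had 10.5 CPM (6.32 to 16.4) from 19 UMIs after vehicle and 6.25 CPM (4.64 to 8.24) from 50 UMIs after teriparatide. The preOB-like cells had 8.64 and 6.81 CPM from 6 and 5 UMIs, OB-like cells 4.84 and 5.26 CPM from 11 and 14 UMIs, and vehicle MALP-like cells 2.44 CPM from 4 UMIs. No UMI was found in teriparatide MALP-like cells (0 to 3.23 CPM), whose interval lay below that of the COP-like cells. No pair of neighbouring classes in the order differed beyond counting error. Vehicle COP-like cells, taken because they were highest there, had 2.30-fold the level of the other 3 larger classes together (log2 ratio 1.20, 0.23 to 2.17). Taking the highest class from the same counts favours an interval above 0. After teriparatide preOB-like cells were highest, at 1.25-fold (log2 ratio 0.33, -1.34 to 1.62).

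Levels were then compared between the libraries within each class, as the log2 ratio of teriparatide to vehicle with a 95% counting interval. A member was counted where it had at least 50 UMIs over both libraries, and it was called higher or lower past 1.5-fold. The median log2 ratio of all genes was -0.20 in COP-like, -0.15 in preOB-like, -0.13 in OB-like and -0.08 in MALP-like cells, and the members are to be read against these values. Tcf7l2 was the member that differed most widely, being higher past 1.5-fold in 3 of the 4 classes.

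**Figure D3:**
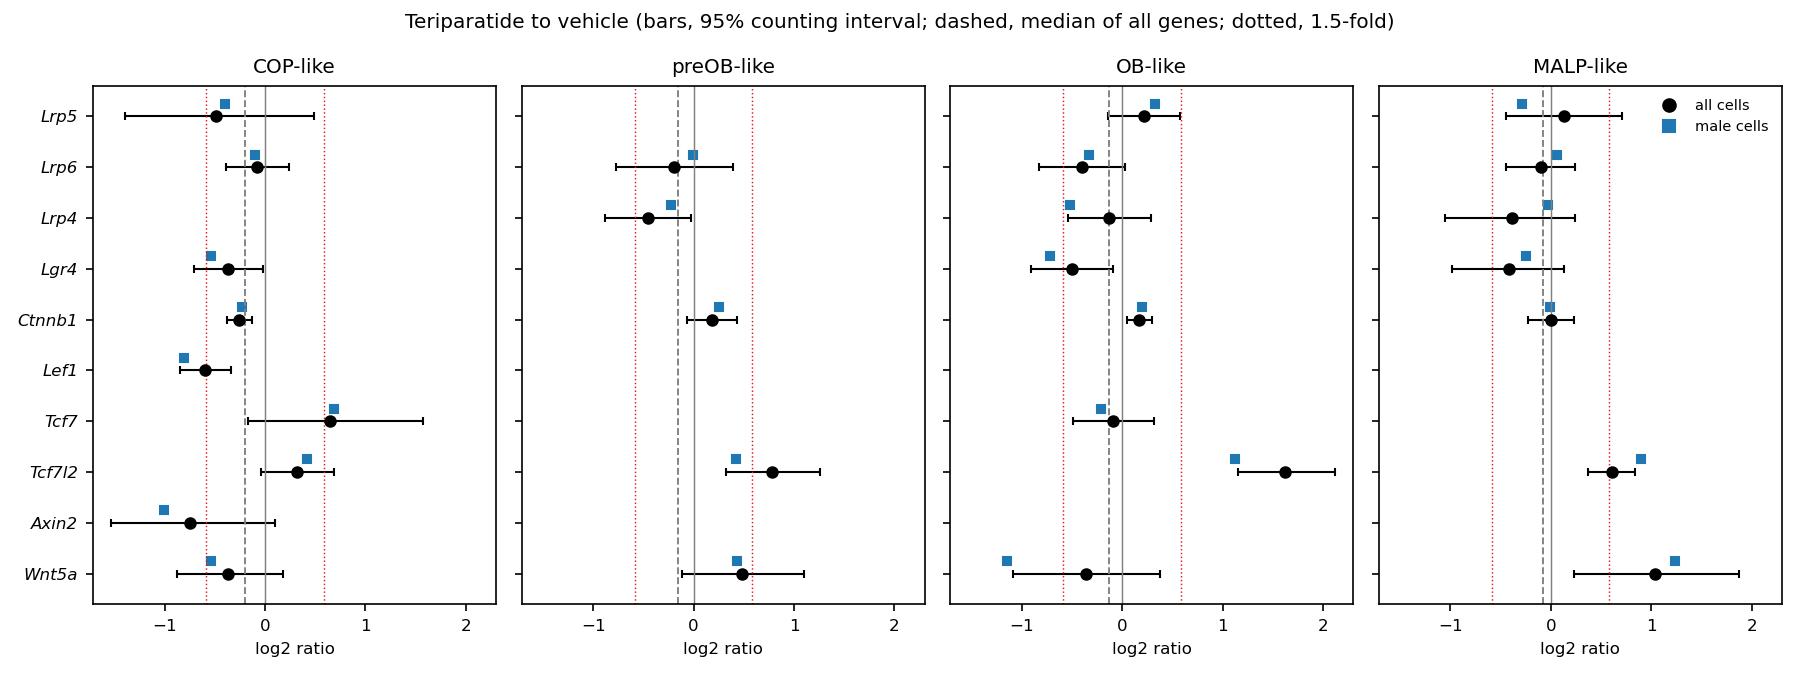
Log2 ratio of teriparatide to vehicle for each member with at least 50 UMIs, by class, with black points and 95% counting intervals for all cells and blue squares for male cells. The dashed line marks the median of all genes and the dotted lines 1.5-fold, past which Tcf7l2 lies in the preOB-like, OB-like and MALP-like cells (0.78, 1.62 and 0.61).

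In COP-like cells 9 of the 10 members had enough UMIs. Past 1.5-fold, 1 was higher (Tcf7) and 2 were lower (Lef1 and Axin2), where 8.16% of all 9225 genes were higher and 17.0% lower. The median ratio of the 9 was -0.37. Lef1 had a log2 ratio of -0.60 (-0.85 to -0.34), and relative to the median of all genes it was -0.39, short of 1.5-fold. The share of COP-like cells with a UMI was 77.3% after vehicle and 54.0% after teriparatide, and 27.7% and 17.6% after thinning. Unthinned, it was 0% and 0.595% in erythroid-like cells and 4.11% and 2.48% in hematopoietic-like cells. The level was lower in each of the 3 clusters, at 122 and 89.4 CPM in the Cpm-led, 110.3 and 63.0 CPM in the Chad-led and 58.6 and 37.7 CPM in the Ppa1-led cluster, and the vehicle interval lay above the teriparatide one in the Chad-led cluster alone. In male cells alone (52 and 229) the ratio was -0.81 (-1.08 to -0.52), and in the few female cells (11 and 25) it was 0.82 (0.08 to 1.63).

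**Figure D4:**
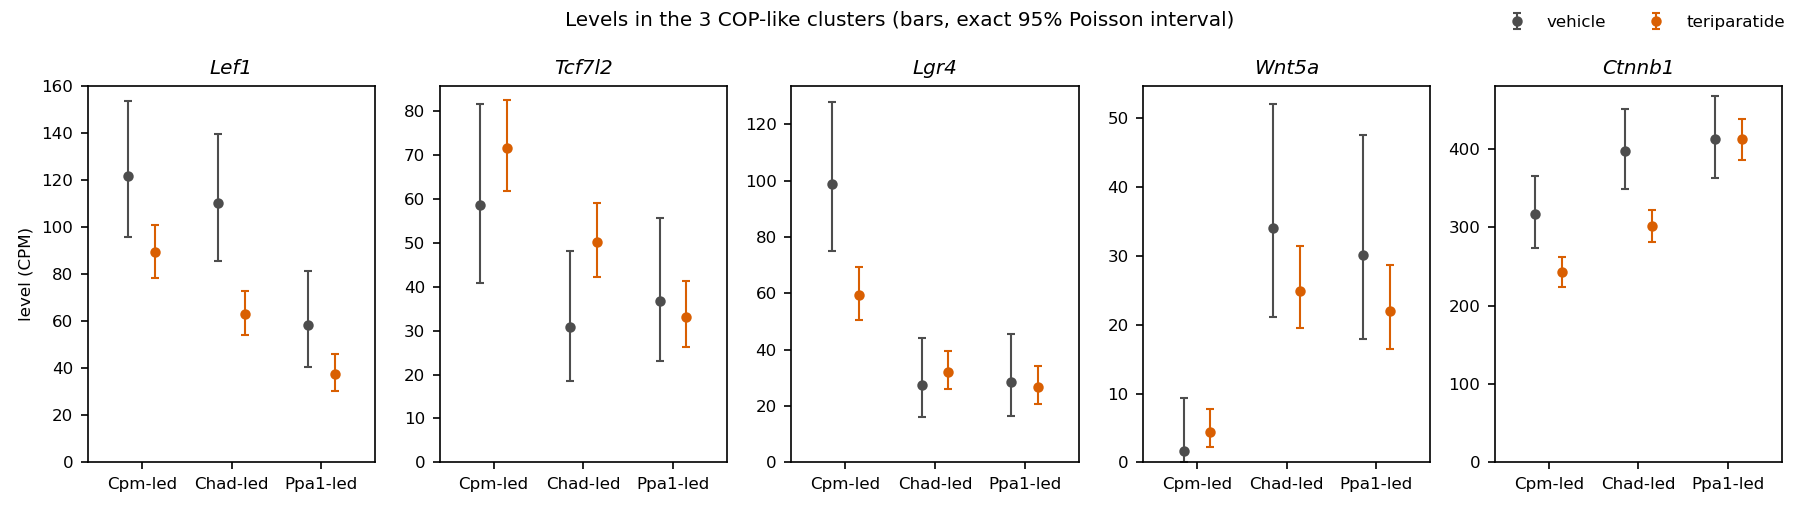
Level (CPM, linear axes from 0) of 5 members in the 3 clusters of COP-like cells, named by their leading gene, in each library with exact 95% Poisson intervals. Lef1 is lower after teriparatide in all 3 clusters, Lgr4 is concentrated in the Cpm-led cluster, and Wnt5a is nearly absent from it.

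The other 2 calls in COP-like cells rested on few UMIs. Tcf7 had 14 and 97 UMIs with a log2 ratio of 0.65 (-0.17 to 1.57), and thinning turned its direction, to -0.31. Axin2 had 19 and 50 UMIs with a ratio of -0.75 (-1.53 to 0.10), which was -1.01 (-1.84 to -0.12) in male cells. Lgr4, the R-spondin receptor, had a ratio of -0.37 (-0.71 to -0.02) and Ctnnb1 one of -0.26 (-0.38 to -0.13), which were -0.16 and -0.05 relative to the median of all genes. Lrp6, at -0.08 (-0.39 to 0.24), lay above that median. Summed over the 5 mural markers, these cells had 62.9 CPM after vehicle and 11.6 CPM after teriparatide, and over the 7 hematopoietic markers 4.97 (4 of 7 seen) and 66.2 CPM (6 of 7 seen). The part of the hematopoietic RNA in these ratios was not tested. Without the cells that held a mural marker (46 and 223 left) the ratio of Lef1 was -0.55. The 5 hypertrophic markers, which include Spp1, are of a class with no UMI of Lef1. In the COP-like cells they summed to 613 CPM after vehicle and 1845 CPM after teriparatide, with all 5 seen in both libraries. Without the cells that held a UMI of Mepe, Sost, Col10a1 or Ihh (62 and 193 left) the ratio of Lef1 was -0.54. This and the -0.55 were just short of 1.5-fold and lay within the counting interval (-0.85 to -0.34) of the reported -0.60. The part of mural or hypertrophic-like RNA in the ratio was not tested.

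In preOB-like cells 5 members had enough UMIs, and 1 of them, Tcf7l2, was higher and none lower, where 8.67% of 4373 genes were higher and 18.1% lower. The median over the 5 was 0.18. The Tcf7l2 ratio was 0.78 (0.32 to 1.26), from 61 UMIs after vehicle and 111 after teriparatide. A UMI was seen in 54.4% and 73.6% of the cells, and in 25.5% and 51.0% after thinning. In male cells (25 and 36) the ratio was 0.42 (-0.18 to 1.05), and with cells assigned one by one from their markers, which left 8 and 11, it was 0.23. The 5 MALP markers, of a class with more Tcf7l2, summed to 5521 and 2524 CPM here, and the 5 mural markers to 1882 and 1738 CPM, with all seen in both libraries. Markers of both classes with the most Tcf7l2 were higher in sum after teriparatide. The 5 osteocyte markers stood at 97.9 CPM (4 seen) and 349.8 CPM (3 seen). The 5 hypertrophic ones, which include Spp1, stood at 21881 CPM (all seen) and 34425 CPM (4 seen). Mepe and Ihh were seen after vehicle and had no UMI after teriparatide, so the higher sums came from other genes of the lists. Without the cells that held a UMI of Mepe, Sost, Col10a1 or Ihh (53 and 48 left) the ratio of Tcf7l2 was 0.61. The part of osteocyte-like or hypertrophic-like RNA in it was not tested. Without cells that held a mural marker (31 and 28 left) the ratio of Tcf7l2 was 1.37, while that of Wnt5a turned from 0.48 (-0.12 to 1.10) to -0.39. Lrp4 had a ratio of -0.45 (-0.88 to -0.03) and was not past 1.5-fold, with -0.22 (-0.81 to 0.39) in male cells. Lef1 had 22 and 8 UMIs here, too few to be counted, with a ratio of -1.54 (-2.92 to -0.32).

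In OB-like cells 8 members had enough UMIs, and again 1, Tcf7l2, was higher and none lower, where 6.92% of 6369 genes were higher and 13.0% lower. The median over the 8 was -0.11. The level of Tcf7l2 was 3.08-fold that of the vehicle, with a log2 ratio of 1.62 (1.15 to 2.12) from 48 and 173 UMIs. The share of OB-like cells with a UMI was 37.5% after vehicle and 74.5% after teriparatide, and 14.9% and 28.3% after thinning. Unthinned, it was 0% and 2.98% in erythroid-like cells and 6.85% and 8.58% in hematopoietic-like cells. The 5 OB-like cells with the most UMIs held 29.2% and 21.4% of them, so most of the UMIs lay outside these few cells. In male cells (30 and 80) the level was 29.9 and 64.9 CPM, a ratio of 1.12 (0.44 to 1.87), and in female cells (58 and 5) it was 18.9 and 80.4 CPM, a ratio of 2.09 (1.05 to 3.06).

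Markers of osteocyte-like and hypertrophic-like cells, both rich in Tcf7l2, were also higher in sum after teriparatide. Summed over the list of 5 osteocyte markers, of which 4 were seen in each library and Dmp1 is also an osteoblast marker, they stood at 388 CPM after vehicle and 1068 CPM in the teriparatide OB-like cells. The 5 hypertrophic markers, which include the osteoblast gene Spp1, stood at 2949 and 24489 CPM, with 4 of 5 seen in each library. When the cells with a UMI of Mepe, Sost, Col10a1 or Ihh were left out, 92 and 79 OB-like cells remained and the ratio of Tcf7l2 was 1.69. Sost and Ihh had no UMI in the OB-like cells of either library, so only Mepe and Col10a1 could mark a cell. Cells with other genes of the 2 lists stayed. The part of osteocyte-like or hypertrophic-like RNA in the ratio was not tested. The mural markers were at 1.76 and 0 CPM. Tcf7 showed no difference beyond counting error in these cells, with a ratio of -0.09 (-0.49 to 0.32), and the whole TCF/LEF family was higher, at 79.6 and 129 CPM, a ratio of 0.70 (0.44 to 0.97). Lgr4 had a ratio of -0.50 (-0.91 to -0.09), short of 1.5-fold, with -0.72 in male and 0.54 in female cells. Ctnnb1 was at 0.17 (0.05 to 0.30), Lrp5 at 0.22 (-0.14 to 0.58) and Lrp6 at -0.40 (-0.83 to 0.03).

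In MALP-like cells 7 members had enough UMIs, and 2 were higher and none lower, where 8.24% of 6871 genes were higher and 10.1% lower. The median over the 7 was 0.00. Tcf7l2 had a ratio of 0.61 (0.37 to 0.84) from 300 and 319 UMIs, with 0.90 (0.59 to 1.22) in male cells (51 and 62) and 0.23 (-0.54 to 0.92) in female cells (66 and 7). A UMI was seen in 76.8% and 91.2% of the cells, and in 44.7% and 63.3% after thinning. The osteocyte markers stood at 42.2 and 14.0 CPM and the hypertrophic ones at 772 and 714 CPM here, and without the cells that held a UMI of Mepe, Sost, Col10a1 or Ihh (121 and 65 left) the ratio of Tcf7l2 was 0.56, short of 1.5-fold. Wnt5a had a ratio of 1.04 (0.23 to 1.87) from 23 and 33 UMIs, with 1.24 (0.16 to 2.44) in male cells. In the 7 female cells of the teriparatide library it had no UMI. The mural markers summed to 107 and 513 CPM in these cells, with all 5 seen in both libraries, and Wnt5a is highest in the preOB-like cluster that shares those genes. Without the cells that held a mural marker, 78 and 25 cells remained and the ratio of Wnt5a was 1.69. The part of mural RNA in this ratio was not tested. Over all MALP-like cells, the 5 with the most UMIs of Wnt5a held 39.1% of them after vehicle and 45.5% after teriparatide. Ctnnb1 stood at 0.00 (-0.23 to 0.23).

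In osteocyte-like cells 2 members had enough UMIs, and neither was past 1.5-fold, where 19.4% of 872 genes were higher and 13.2% lower. Tcf7l2 had a ratio of 0.48 (0.01 to 0.97) and Ctnnb1 one of 0.34 (-0.33 to 1.06). Lrp4 had 15 and 24 UMIs, with a ratio of -0.79 (-1.78 to 0.24). The ratios of Tcf7l2 in all 5 classes were thus above 0, with an interval that reached below 0 in COP-like cells, where it was 0.32 (-0.04 to 0.69). In male COP-like cells (52 and 229) it was 0.42 (0.04 to 0.83). In female COP-like cells (11 and 25) it had the other direction, at -0.95 (-2.11 to 0.28). All 5 comparisons share the same pair of libraries.

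Because COP-like cells were 15.6% of the mesenchymal cells after vehicle and 43.9% after teriparatide, the level over all 6 named classes also depended on the cell make-up. Over these cells as sampled, Lrp4 was lower, at 43.5 and 20.4 CPM, a ratio of -1.09 (-1.34 to -0.85). With the teriparatide levels of each class weighted by the UMI shares of the vehicle library, the ratio was -0.32. For Lrp5 the ratios were -0.65 (-0.91 to -0.39) as sampled and 0.12 at the vehicle composition. For Lef1 the direction turned in the same way, from 0.32 (0.09 to 0.55) as sampled to -0.51. Tcf7l2 was higher on both, at 0.45 (0.31 to 0.59) and 0.71, and Ctnnb1 was near 0 on both, at 0.00 (-0.08 to 0.07) and 0.03. Lgr4 was lower on both, at -0.38 (-0.59 to -0.17) and -0.44. Of the mesenchymal cells with a called sex, COP-like cells were 52 of 180 male and 11 of 162 female cells after vehicle. After teriparatide they were 229 of 450 male and 25 of 50 female cells. The part of sex in these composition ratios was not tested.

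**Figure D5:**
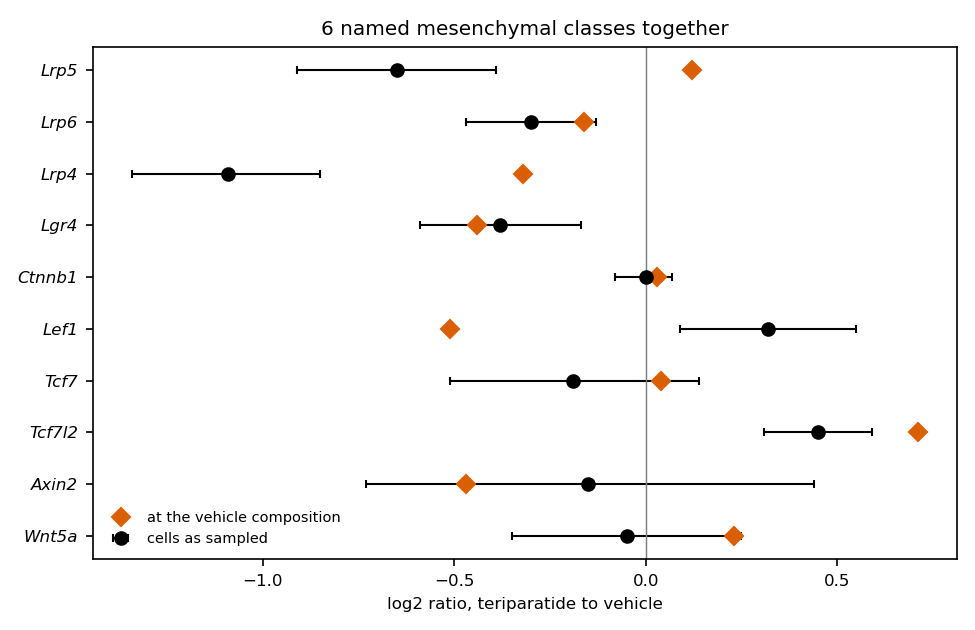
Log2 ratio of teriparatide to vehicle over the 6 named mesenchymal classes together, with black points and 95% counting intervals for the cells as sampled and orange diamonds for the levels weighted to the make-up of the vehicle library. Lef1 and Lrp5 lie on opposite sides of 0 in the 2 versions, and Lrp4 moves from -1.09 to -0.32.

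Of 79 other Wnt pathway genes in the files (ligands, receptors, R-spondins, transducers, nuclear factors and targets), 48 had at least 50 UMIs in COP-like cells, with 5 higher and 3 lower past 1.5-fold and a median log2 ratio of -0.20, where 8.16% of all genes were higher and 17.0% lower. The 3 named for the largest ratios were Wisp2, a Wnt-induced secreted protein, at -1.37 (-1.93 to -0.80), the beta-catenin partner Bcl9 at 1.23 (0.41 to 2.18) and the Frizzled receptor Fzd8 at 1.09 (0.15 to 2.20). In male cells these were -1.41, 1.48 and 1.63, and in female cells Fzd8 had the other direction, at -1.34. In preOB-like cells 4 of 26 were higher and 9 lower, with a median of -0.27, where 8.67% of all genes were higher and 18.1% lower. They were led by the co-repressor Tle1 at -1.99 (-3.04 to -1.05), the cell cycle target Ccnd1 at 1.35 (0.59 to 2.17) and the feedback gene Nkd2 at -1.30 (-2.06 to -0.59), which had -2.03, 1.16 and -1.23 in male cells. In OB-like cells 7 of 30 were higher and 5 lower, with a median of -0.13, where 6.92% of all genes were higher and 13.0% lower. Notum, a target that encodes an enzyme which inactivates Wnt ligands, went from 11.4 to 44.0 CPM there (1.94, 1.32 to 2.62), Ccnd1 from 11.0 to 38.7 CPM (1.82, 1.17 to 2.51), and the ligand Wnt4 from 246 to 112 CPM (-1.13, -1.34 to -0.93). Their ratios in male cells were 2.23, 0.61 (-0.23 to 1.55) and -1.05.

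In MALP-like cells 8 of 41 of these genes were higher and 3 lower, with a median of 0.08, where 8.24% of all genes were higher and 10.1% lower. The largest ratios were those of the receptor Fzd2 at 1.36 (0.61 to 2.14), the target Myc at -1.36 (-2.03 to -0.73) and the nuclear factor Pygo1 at 1.12 (0.32 to 1.95). In male cells Fzd2 had 0.34, short of 1.5-fold, Myc -1.42 and Pygo1 0.82. In osteocyte-like cells 6 of the genes had enough UMIs. The decoy receptor gene Tnfrsf11b was lower there at -1.60 (-1.98 to -1.22), Wisp1 was higher at 1.15 (0.64 to 1.69), and the adhesion receptor gene Cd44 had -0.33 (-0.61 to -0.05). In male osteocyte-like cells (8 and 21) these were -1.50, 0.57 (-0.10 to 1.29), which is short of 1.5-fold, and -0.71, and in the 4 and 4 female cells Cd44 had the other direction, at 0.53 (-0.16 to 1.27). The known targets took no common direction within the OB-like cells, where Nkd2 (-0.92, -1.29 to -0.56), Tnfrsf11b (-0.66, -1.20 to -0.13) and Myc (-0.59, -1.11 to -0.08) were lower past 1.5-fold while Notum and Ccnd1 were higher, targets named here after their values were seen. In male OB-like cells Nkd2 had -0.21 (-0.79 to 0.40), no longer past 1.5-fold, Tnfrsf11b -1.15 (-1.94 to -0.33) and Myc -0.64 (-1.33 to 0.09), and in female cells Tnfrsf11b had the other direction, at 1.28 (0.31 to 2.16).

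The genes most like each member were sought among 7788 genes with at least 200 UMIs, by Pearson's r of log2(CPM + 10) over the 8 sums of the 4 larger classes in the 2 libraries. These 8 points are the 4 classes, each taken in both of the 2 libraries, so they are not 8 independent points. With so few points the highest r among many genes is large for most members. Lef1 was most like Ngef (0.984) and Ppat (0.981), Tcf7 like Mef2c (0.981) and Mmp16 (0.980), and Tcf7l2 like Qpctl (0.987) and Nsmce1 (0.979). Among the receptors, Lrp5 was most like Hes6 (0.990) and Nrp2 (0.977), Lrp6 like Mob4 (0.998) and Btd (0.994), Lrp4 like Tnfrsf19 (0.977) and Ddr2 (0.974), and Lgr4 like Secisbp2 (0.949) and Yipf6 (0.902). Wnt5a was most like Zfyve9 (0.983) and Rgs5 (0.969), a gene that leads the preOB-like cluster, and Ctnnb1 like Tanc1 (0.957) and Bckdk (0.952). Axin2 had 109 UMIs and was not compared. Among all pairs of members, those with the largest r in size are named, after their values were seen. Lrp5 and Lef1 ran opposite to each other (r = -0.87), as did Lgr4 and Wnt5a (-0.89). Lrp6 ran opposite to Tcf7 (-0.91) and to Ctnnb1 (-0.82), while Ctnnb1 and Tcf7 ran together (0.81).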

How the data were processed

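Single-cell RNA was measured in 2 libraries, 1 per treatment. The authors aligned the reads to mm10 and made the deposited UMI counts with Cell Ranger, given as 2.1.0 in the methods and processing notes, while the matrix headers name version 3.1.0. Members and gene lists were chosen with earlier results of these data known.

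Cells with 200 to 6000 genes and at most 10% mitochondrial UMIs, the limits of the methods, were integrated and clustered in Seurat 5.3.0 (R 4.3.3; 20 components, resolution 0.6) on 2000 variable genes without the markers, members and Wnt genes. Hematopoietic-like and erythroid-like clusters and 4 further cells with Ptprc were left out, and the rest clustered again. A cluster was named from at least 3 markers, each seen in 10% of its cells and above the mean of the other clusters. A shallow cluster of 109 cells (55 and 54, median 3188 and 1239.5 UMIs) stayed unnamed, a choice made after seeing the data. It met all 5 MALP markers and would have been MALP-like by this rule. Its leading genes held 1 MALP marker and 1 marker of another class. Doublets were limited by the 6000-gene limit only, and as an alternative the cells above the 95th UMI percentile were left out. The libraries shared 2 barcodes.

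UMIs were summed per class and library (Python 3.11.15, scipy 1.17.1). The code for the intervals was tested on simulated Poisson counts, the model that the intervals assume. This cannot show how they hold where UMIs are gathered in few cells. The rule named all 10 members, the 3 other Wnt genes with the largest ratio per class whose interval excluded 0, and the 2 genes most like each member. A member's share of cells was also taken with cells thinned to 3400 UMIs, and shallower cells were left out. Positions come from GENCODE vM21 on GRCm38, and promoter windows from RefSeq. Antisense genes, taken over their whole spans with introns, lie over exons of Lef1, Tcf7, Axin2, Wnt5a and Ctnnb1. Counts of these members are uncertain to that extent if counting ignored strand, which the sources used here do not state. The alternatives were a mitochondrial limit of 20%, resolution 1, a per-cell marker gate, all variable genes, another scaling, equal weight per cell, thinning, each sex alone and other limits on UMIs and fold.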

Additional observations from a re-analysis of the deposited data

Results flagged for a closer look

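Lef1 in COP-like cells differed in direction between the sexes. In male cells the log2 ratio of teriparatide to vehicle was -0.81 (-1.08 to -0.52), from 99.8 CPM in 52 cells to 57.0 CPM in 229. In female cells it was 0.82 (0.08 to 1.63), from 66.7 CPM in 11 cells to 117 CPM in 25, with 18 and 100 UMIs. The difference between the sexes was not tested, since each treatment had 1 library, in which the cells of single mice cannot be told apart. The female cells were spread unevenly over the clusters, with 1 and 1 in the Cpm-led, 6 and 13 in the Chad-led and 4 and 11 in the Ppa1-led cluster. No other member had intervals on opposite sides of 0 in the sexes within a class.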

How the results depend on the processing

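No paired analysis was possible because each treatment had 1 library. Of 240 recomputed levels of members, 204 stayed within the counting interval of the reported level and 36 moved outside it. Of 376 recomputed log2 ratios of members, 337 stayed within the counting interval of the reported value, 36 moved outside it and 3 reversed a call. The reversed ones were Lef1 (0.82) and Axin2 (0.34) in female COP-like cells and Tcf7 (-0.31) in thinned COP-like cells. Tcf7l2 in OB-like cells was above 1.5-fold under all 13 alternatives (1.12 to 2.09) and Wnt5a in MALP-like cells under all 12 that gave a value (0.62 to 1.69), whereas Tcf7l2 in MALP-like cells passed in 11 of 13 (0.23 to 0.90), in preOB-like cells in 10 of 13 (0.23 to 1.37) and Lef1 in COP-like cells in 7 of 13. Tcf7 and Axin2 in COP-like cells passed in 11 and 10 of 13. The count of members past 1.5-fold in COP-like cells, 3, became 1 with median-ratio scaling and 0 with a fold limit of 2. In female COP-like cells (11 and 25) the members past it were others in part. Lef1 (0.82), Wnt5a (0.71) and Tcf7 (1.66, from 1 and 10 UMIs) were higher and Tcf7l2 (-0.95) lower. The interval excluded 0 for Lef1 alone. In MALP-like cells the count of 2 became 1 with a fold limit of 2 and 1 without cells holding Mepe, Sost, Col10a1 or Ihh, an alternative chosen after seeing the data, as were the mural and joined osteocyte ones. In OB-like cells the count of 1 became 2 with equal weight per cell and with no minimum beyond 1 UMI, and 3 in male cells and in female cells alone. In preOB-like cells the count of 1 became 2 with the per-cell gate, median-ratio scaling, thinning and no minimum, 0 in male cells and with a fold limit of 2, and 3 in female cells. The share of all genes past the fold limit was taken under the main setting only. The changed counts therefore have no share to be read against and describe the processing, not the members. With equal weight per cell Tcf7 held 45.5% of the TCF/LEF UMIs of vehicle OB-like cells, in place of 54.1%. The gate assigned 948 of 1027 cells, with 71 within 0.05 of one of its limits, and gave 796 of the 853 assigned cells of the named classes the same class. This did not hold evenly over the classes. The gate gave 8 and 11 preOB-like cells, against 57 and 53 from the clusters, and 64 and 257 COP-like cells, against 66 and 265. Relative to the median of all genes, Lrp6 in COP-like cells (0.12) and Lrp4 (0.01) and Tcf7 (0.05) in OB-like cells lay above 0 instead of below. The cause of these moves was not tested. Depth limits Axin2 most, with no more than 50 UMIs in any class and library.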

Other observations

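The hypertrophic-like cells, 8 after vehicle and 20 after teriparatide, were rich in Tcf7l2, at 395 CPM (279.7 to 542) and 659 CPM (594 to 729). The UMIs came from 3 of 8 and 16 of 20 cells, and the 5 cells with the most held 100% and 56.3% of them. No UMI of Lef1 was found in these cells, although they share Col2a1 and Acan with the COP-like cells in which Lef1 was highest. Ctnnb1 stood at 395 CPM (279.7 to 542) and 429 CPM (377 to 486), close to the OB-like level in both libraries and, after teriparatide, above the COP-like level of 315 CPM (303 to 327).

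Hematopoietic-like cells held little of most members. Lrp6 had 12 and 10.8 CPM in them, Tcf7l2 12 and 11.2 CPM and Lrp5 13.5 and 5.70 CPM. Wnt5a and Axin2 each had 0 UMIs after vehicle and 1 after teriparatide. In the 443 teriparatide cells, 5 cells held 88.2% of the 17 UMIs of Tcf7 and 70.8% of the 24 UMIs of Lef1.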
